A study of Rattus norvegicus with 24 samples.

Results

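The thyroid of rats that had been fed an iodine-deficient diet and had then drunk perchlorate water for 1 day was compared with the thyroid of rats on normal food and water. The arrays were chosen by their titles, and they are 6 of the 24 arrays of the study. Replicates 2, 3 and 6 carry the combination, and replicates 21, 22 and 24 are the day 1 controls. All animals were adult male Sprague-Dawley rats kept for 2 months and 1 day or 2 months and 14 days. The combination group had the deficient diet for the whole 2 months and 1 day, and potassium perchlorate at 95 mg per liter of drinking water for the last day. The control group had normal diet and normal water for the same time. The remaining arrays hold the diet alone, perchlorate alone, the combination and the control at day 14, and the diet alone and perchlorate alone at day 1, with 3 arrays per group. The labels do not state whether the arrays of a group came from separate animals. The p-values therefore rest on the spread between samples, part of which may be technical.

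Follicular cells of the thyroid take iodide from the blood through the sodium iodide symporter, the product of Slc5a5, and bind it to thyroglobulin to make thyroid hormone. A diet poor in iodine lowers the iodide on offer, and perchlorate is an anion that competes with iodide at the symporter. When thyroid hormone falls, the pituitary releases more thyrotropin, which acts on its receptor Tshr and raises cyclic AMP in follicular cells, and thyrotropin is known to raise the symporter. The comparison asks what the 2 obstacles to iodide uptake did together when perchlorate had been present for 1 day only.

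Levels are given as log2(intensity + 16) of a probe set, the group of short probes that measures 1 transcript, after quantile normalization. A fold change is 1 group mean minus the other on that scale, and it understates the change of dim genes. SE is the standard error of that difference, SD is the spread over the 3 arrays of a group, and every adjusted p is from limma, two-sided, with Benjamini-Hochberg adjustment over all 31042 probe sets. Where several probe sets measure a gene the brightest stands for it, which gave 14217 genes, and a gene was called at an adjusted p under 0.05. Correlations between arrays ran from 0.973 to 0.980 within the combination and from 0.964 to 0.981 within the control. Outside these groups, perchlorate replicate 18 of day 1 stood apart, with a median deviation of 0.603 from the other arrays against 0.138 to 0.280 for the remaining arrays. It enters this comparison only through the shared normalization and the shared estimate of the spread. Markers of the labelled tissue were high: Tg, the gene of thyroglobulin, was at 13.66 ± 0.20 (SD, n = 3) in the combination and 13.80 ± 0.21 in the control, and 7 of 8 follicular markers were measured.

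The clearest changes were rises. Itih3, which encodes a heavy chain that is transferred to hyaluronan, was 13.4-fold higher, the symporter gene Slc5a5 was 2.29-fold higher, and a set of enzymes, signalling proteins and phosphodiesterases rose with them. The antioxidant enzyme gene Nqo1, the endothelial gene Esm1 and the clock genes Nr1d1 and Dbp were among the falls. In all, 58 of 14217 genes were called, which is 0.408% of those tested, and 46 were higher (0.324%) and 12 lower (0.0844%). Over probe sets limma called 85, 71 higher and 14 lower, which is 0.274% of 31042, and 2707 had an unadjusted p under 0.05. Without normalization the calls were 129 higher and 6 lower, and the median of all probe sets moved from -0.01 to 0.14. The median log2 fold change of all genes was -0.03, and 45.8% were above 0.

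These calls lean on the spread pooled over all 24 arrays. A fit of the 6 arrays alone called 1 probe set, that of Itih3 (adjusted p = 0.0257). Without perchlorate replicate 18 of day 1 there were 273 calls, and without it and control replicate 22 of day 1 there were 241. Leaving out combination replicate 3 left 50 calls, combination replicate 6 left 44 and control replicate 21 left 46. Of the 58 called genes, 19 kept the call in all 6 fits that left out 1 of these arrays, and 39 lost it in at least 1.

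**Figure D1:**
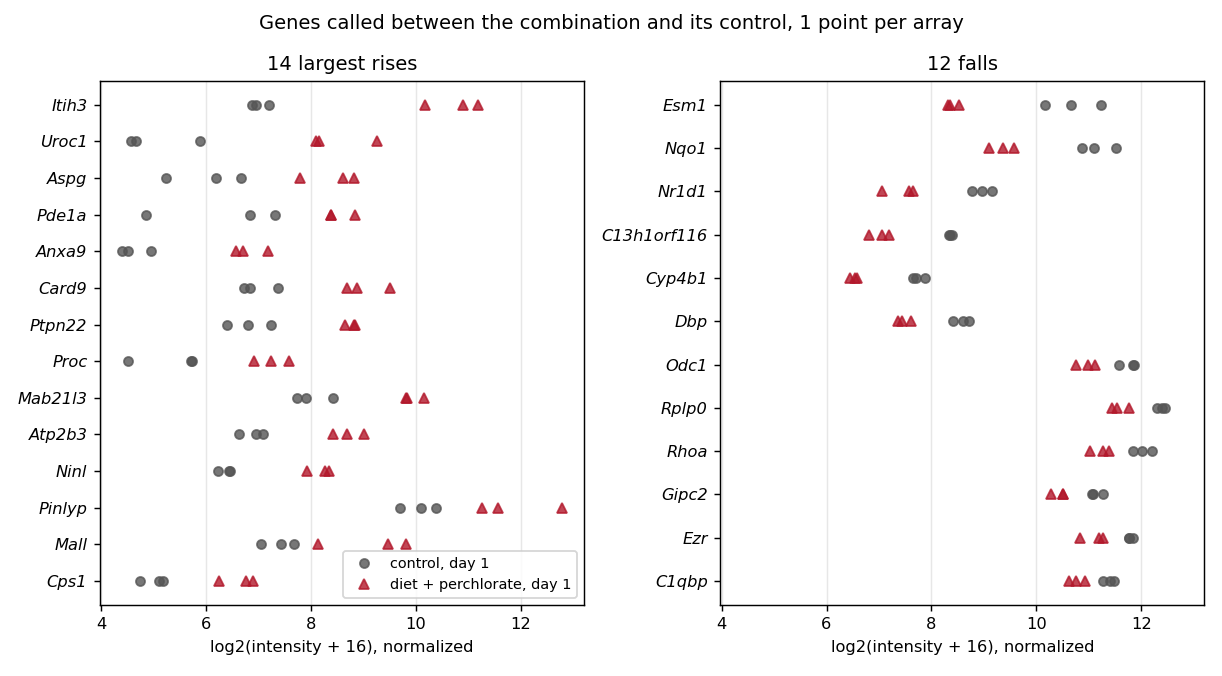
Level of the 14 genes with the largest rises (left) and of all 12 genes that fell (right), as log2(intensity + 16) after normalization on a linear axis. Each point is 1 array, with 3 control arrays in grey circles and 3 arrays of the combination in red triangles. Absence of overlap between the groups was a condition of choosing these genes. The widest gap is that of Itih3.

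The 3 genes with the largest rises are shown with their promoters because each holds the core of the antioxidant response element, which NRF2 binds. Nqo1, the best-known NRF2 target on the array, fell and is not among the genes with a match in the window searched. An element outside that window would be missed, so this does not show that Nqo1 lacks one. Sequences were found for 28 of the 29 called named genes. The motif was searched as TGACNNNGC on both strands, from 250 bases before to 50 after the start of the gene, and the match is in capitals. The sequences are from RefSeq on assembly GRCr8 and are written 5′ to 3′ on the strand of the gene. The Itih3 window is chr16:6123325-6123624 on the minus strand, with the match starting 60 bases before the start of the gene. The Uroc1 window is chr4:124401869-124402168 on the plus strand, with the match on the opposite strand. The Aspg window is chr6:136997773-136998072 on the plus strand, with the match starting 240 bases before the start.
Itih3: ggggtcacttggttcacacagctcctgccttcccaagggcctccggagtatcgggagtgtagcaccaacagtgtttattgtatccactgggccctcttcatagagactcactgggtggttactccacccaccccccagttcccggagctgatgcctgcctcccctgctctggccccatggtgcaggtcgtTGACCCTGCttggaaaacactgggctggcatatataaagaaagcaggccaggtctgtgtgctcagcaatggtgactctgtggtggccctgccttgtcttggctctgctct
Uroc1: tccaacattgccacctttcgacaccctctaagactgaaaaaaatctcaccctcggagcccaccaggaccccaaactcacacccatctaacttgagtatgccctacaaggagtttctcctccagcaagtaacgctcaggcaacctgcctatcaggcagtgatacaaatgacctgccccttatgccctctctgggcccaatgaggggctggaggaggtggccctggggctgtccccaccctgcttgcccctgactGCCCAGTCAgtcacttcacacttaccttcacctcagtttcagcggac
Aspg: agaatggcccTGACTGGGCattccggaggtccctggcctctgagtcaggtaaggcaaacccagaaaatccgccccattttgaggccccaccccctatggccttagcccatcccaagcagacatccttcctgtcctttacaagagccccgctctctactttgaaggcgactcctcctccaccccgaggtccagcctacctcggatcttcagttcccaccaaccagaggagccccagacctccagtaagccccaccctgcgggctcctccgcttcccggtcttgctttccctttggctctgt
A match was present in 9 of the 28 called named genes found in the table (Itih3, Uroc1, Aspg, Cyp4b1, Proc, Odc1, C1qbp, Anxa9 and Pde8a) and in 12.2% of 27457 promoters. Cyp4b1, Odc1 and C1qbp are the ones of these that fell. The full cyclic AMP response element, TGACGTCA, was in 0 of the 28 and in 1.91% of all promoters. A match describes these letters only and does not show that a factor binds there.

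Among the 14 measured genes of iodide handling and hormone synthesis, Slc5a5 rose and no other was called, against 0.408% of all genes. Its level was 11.94, 12.07 and 12.03 in combination replicates 2, 3 and 6, and 10.66, 10.70 and 11.09 in control replicates 22, 21 and 24. Every array of the combination was above every control, and the arrays of the combination had an SD of 0.07. The difference was 1.19 (SE 0.19, adjusted p = 0.00458), and it was called in each alternative except the fit of the 6 arrays alone, over a range of 1.06 to 1.41. Against the controls of day 14 it was 1.06 (adjusted p = 0.00908).

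Of the 14 measured genes of that list, 7 were above 0 and 7 below, and the list median was -0.03, the same as that of all genes. Tg was at 13.89, 13.48 and 13.62 in the combination and 13.87, 13.97 and 13.57 in the control, so the groups overlapped (log2 fold change -0.14, adjusted p = 0.787). Iyd, the deiodinase that recovers iodide from iodotyrosines, was at 13.27, 13.55 and 13.37 against 12.79, 13.02 and 13.15, without overlap but short of the threshold (0.41, adjusted p = 0.289). Duoxa1, which matures the enzyme that makes peroxide for iodination, was lower in all 3 arrays (-0.69, adjusted p = 0.397). Duox2, the peroxide-forming enzyme itself, differed by 0.32 (adjusted p = 0.733). Dio1, a deiodinase that makes active hormone, differed by 0.91 (adjusted p = 0.597), and its groups overlapped. Slc26a10, a member of the anion transporter family outside the list that was picked after its values were seen, rose by 1.04 (adjusted p = 0.0152) but by 0.49 on the lowest alternative, and it lost the call without any 1 of 4 arrays, combination replicates 3 (adjusted p = 0.0919) and 6 (0.0644) and control replicates 22 (0.0746) and 21 (0.0764).

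In the thyrotropin and cyclic AMP pathway the genes that rose were phosphodiesterases, the enzymes that break cyclic nucleotides down. Of 29 measured members, 2 rose (Pde4b and Pde8a) and 0 fell, against 0.324% and 0.0844% of all genes, and the list median was -0.07. Pde4b was at 9.46, 10.05 and 9.79 in the combination and 8.57, 8.75 and 8.73 in the control. All arrays of the combination were above all controls, and the difference was 1.08 (SE 0.15, adjusted p = 0.00116). Its other probe set was dimmer and differed by 0.97 without passing (adjusted p = 0.408). Pde8a, which is specific for cyclic AMP, rose by 0.77 (adjusted p = 0.0395), but the call ended without any 1 of 5 arrays: combination replicate 3 (0.135) or 6 (0.191), or control replicate 22 (0.121), 21 (0.16) or 24 (0.0619). Pde1a, a calcium-dependent phosphodiesterase outside the list, rose by 2.20 (SE 0.41, adjusted p = 0.0152). Its levels were 8.37, 8.39 and 8.84 against 4.86, 6.83 and 7.31, so control replicate 22 was far below the other controls. The Pde1a call ended without combination replicate 3 (0.0547) or 6 (0.0985).

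The receptor and the machinery upstream of cyclic AMP did not pass. Tshr was at 10.66, 10.50 and 10.05 in the combination and 9.97, 9.27 and 10.07 in the control, and the groups overlapped (0.63, adjusted p = 0.563). Adcy3, Adcy6 and Adcy9, which make cyclic AMP, differed by -0.28, -0.07 and -0.70. The catalytic subunits of protein kinase A, Prkaca and Prkacb, differed by -0.23 and -0.04, and the stimulatory G protein Gnas by -0.07. Crem, whose inducible products repress cyclic AMP targets, differed by 0.36 (adjusted p = 0.858).

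Immediate early genes, which respond to many signals within minutes, gave a mixed picture. Of 28 measured, 0 were called in either direction by limma, and the list median was 0.13. At an unadjusted p under 0.05, 5 were higher and 3 lower, against 4.58% and 5.18% of all genes. Jun, a subunit of the AP-1 transcription factor, depended on the probe set. The brightest was at 11.32, 12.22 and 11.65 in the combination and 11.80, 10.15 and 10.62 in the control, where control replicate 22 lay above 2 arrays of the combination (0.87, adjusted p = 0.439). The other 2 probe sets of Jun did not overlap and were called, at 1.49 and 1.50 (adjusted p = 0.00854 and 0.00856). Fos, the partner of Jun, was at 8.58, 10.48 and 10.04 against 8.77, 8.22 and 8.52, with combination replicate 2 inside the control range (1.20, adjusted p = 0.255). Klf2, Egr3 and Myc had negative differences of -1.05, -1.11 and -0.92, none of them called.

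Itih3 was the most strongly changed gene. It was at 10.17, 10.89 and 11.19 in the combination and at 6.96, 6.88 and 7.19 in the control. All arrays of the combination were far above all controls, and the difference was 3.74 (SE 0.28, adjusted p = 3.99e-07). It was the only called gene to keep its call in all 20 alternatives, over a range of 3.32 to 4.03. Of 13 measured genes of hyaluronan and its binding proteins, Itih3 was the 1 that was called, against 0.408% of all genes. Its family members Itih1, Itih2 and Itih4 differed by 0.24, 0.13 and 0.16, and Ambp, the light chain partner of heavy chains such as Itih3, by -0.34. Vcan, a hyaluronan-binding proteoglycan, differed by 0.89 (adjusted p = 0.416), and the hyaluronan receptor Cd44 by 0.12.

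Enzymes of amino acid breakdown followed Itih3 in size. Uroc1, urocanase of the histidine pathway, was at 8.16, 9.26 and 8.10 in the combination and 5.88, 4.57 and 4.67 in the control, a difference of 3.47 (SE 0.52, adjusted p = 0.00356). Aspg, an asparaginase, was at 7.79, 8.60 and 8.82 against 6.66, 6.18 and 5.23, a difference of 2.38 (SE 0.36, adjusted p = 0.00356). Both sets of arrays were well separated, though the 2 dimmest Uroc1 controls were near the value that 0 intensity would give, which is 4. Cps1, the mitochondrial enzyme that starts the urea cycle, rose by 1.63 (adjusted p = 0.00729), but it lost the call without combination replicate 6 (0.0571) or control replicate 21 (0.0538), and its second probe set was near 0 (0.02).

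The rises of Uroc1 and Aspg were not shared by the rest of their list. Of 18 measured enzymes of amino acid and one-carbon metabolism, 2 rose and 0 fell, against 0.324% and 0.0844% of all genes. Of the 18, 13 were below 0, and the median was -0.24. Hal, the enzyme just before urocanase, differed by -0.21 (adjusted p = 0.923), and Ftcd, which acts after it, by -0.29. Shmt1, which moves one-carbon units from serine to folate, was at 8.12, 7.85 and 7.99 against 9.36, 8.70 and 8.87, without overlap and close to the threshold (-0.99, adjusted p = 0.0621). Asns, which makes the asparagine that Aspg breaks down, differed by -0.22 (adjusted p = 0.741).

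Card9 and Ptpn22 also rose. Card9, an adaptor that links receptors to NF-kappaB, was at 8.87, 8.69 and 9.50 in the combination and 6.73, 6.83 and 7.37 in the control (2.04, SE 0.32, adjusted p = 0.00458). Ptpn22, a phosphatase that restrains antigen receptor signalling, was at 8.65, 8.83 and 8.82 against 7.23, 6.39 and 6.79 (1.96, SE 0.28, adjusted p = 0.00265). The groups did not overlap for either gene, and both calls held in each alternative except the fit of the 6 arrays alone. The second probe set of Ptpn22 was dim and differed by -0.06.

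The next 4 genes were picked after their values were seen. Blnk, the linker of B cell receptor signalling, rose from 10.49, 10.31 and 10.25 to 11.29, 11.48 and 11.58 (1.10, adjusted p = 0.000777). Cxcl16, a membrane-bound chemokine, rose by 1.02 (adjusted p = 0.00458), Litaf by 0.91 (adjusted p = 0.0113) and Tnfaip3, an inhibitor of NF-kappaB, by 0.87 (adjusted p = 0.0198). The calls of Blnk and Cxcl16 held without each array. That of Litaf ended without combination replicate 3 (0.0997) or 6 (0.0561) or control replicate 24 (0.0818), and that of Tnfaip3 ended without any array but combination replicate 2 (adjusted p up to 0.155). Lymphocyte markers were low in both groups: their summed intensity over 14 genes was 1047 to 1616 in the combination and 989 to 1334 in the control, and their median difference was 0.15 with 0 called. Among them the B cell markers Ms4a1 and Cd79b differed by 0.17 and -0.14. In bulk tissue, more cells of a type and more RNA per cell cannot be told apart.

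Dlg5, Mab21l3, Ninl and Lrig3 rose too. Dlg5, a scaffold of cell junctions, was at 11.40, 11.49 and 11.57 against 9.80, 9.97 and 10.29 (1.47, SE 0.18, adjusted p = 0.000328). Mab21l3 rose by 1.92 (SE 0.20, adjusted p = 7.47e-05) and Ninl, a protein of the centrosome, by 1.81 (SE 0.21, adjusted p = 0.000253). Lrig3, a membrane protein with leucine-rich repeats, rose by 1.28 (adjusted p = 0.00458), with a dim second probe set at 0.27. These kept their calls without each array.

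Other large rises were less steady. Proc, the precursor of the anticoagulant protein C, rose by 1.92 (adjusted p = 0.00854) and lost the call without combination replicate 6 (0.0743) or control replicate 22 (0.0555). Pinlyp rose by 1.81 (adjusted p = 0.0113) and Mall, a protein of membrane rafts, by 1.76 (adjusted p = 0.0171). The Pinlyp call ended without combination replicate 6 (0.0779) or control replicate 21 (0.0894), and that of Mall without combination replicate 3 (0.139) or 6 (0.114) or control replicate 21 (0.119) or 24 (0.0619). Atp2b3, a calcium pump of the plasma membrane, rose by 1.82 (adjusted p = 0.0262), with 1 of 3 probe sets called, and held only without combination replicate 2 (adjusted p up to 0.153 without the others). Anxa9, an annexin, rose by 2.20 (adjusted p = 0.0339), with 1 of 2 probe sets called, and its call ended without any 1 of the 6 arrays (0.0513 to 0.172).

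The antioxidant enzyme Nqo1, a quinone reductase controlled by NRF2, was among the strongest falls. It was at 9.57, 9.10 and 9.36 in the combination and 11.52, 10.87 and 11.10 in the control. All arrays of the combination were below all controls, and the difference was -1.82 (SE 0.29, adjusted p = 0.00458). The call held without each array and against the day 14 controls (-1.55, adjusted p = 0.013), and it missed the threshold with muscle and adipocyte marker levels as covariates (-1.69, adjusted p = 0.0586).

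Of 29 measured NRF2 targets, Nqo1 was the 1 that fell and 0 rose, against 0.0844% and 0.324% of all genes. Of the 29, 23 were below 0, with a median of -0.28 and a range of -0.35 to -0.08 over the alternatives. Arrays did not overlap and were lower for 10 of the 29, against 9.74% of all genes. Gclc, the catalytic subunit of the first enzyme of glutathione synthesis, was at 8.28, 8.26 and 8.28 against 8.92, 9.44 and 9.33, just short of the threshold (-0.96, adjusted p = 0.0629). Tkt and Pgd, of the pentose phosphate pathway, differed by -0.96 and -0.39, and the thioredoxin reductase Txnrd1 by -0.56, none of them called. The list was not uniform: Akr1b8, an aldo-keto reductase, differed by 1.06 (adjusted p = 0.411), and Slc7a11, the cystine importer, by -0.03.

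Cyp4b1, a cytochrome P450, was at 6.45, 6.58 and 6.54 against 7.87, 7.71 and 7.65 (-1.22, SE 0.19, adjusted p = 0.00458). Stra6, the cell surface receptor for retinol-binding protein, was at 8.36, 7.82 and 6.46 against 9.99, 10.14 and 9.42. The groups did not overlap, but the arrays of the combination were far apart and the gene was not called (-2.30, SE 0.58, adjusted p = 0.127). Of its other 4 probe sets, 3 were also lower without overlap, at -1.84 to -2.75, and the dimmest was at 0.11.

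Esm1, a proteoglycan secreted by endothelial cells, had the largest fall that passed. Its level was 8.35, 8.32 and 8.53 in the combination and 10.65, 11.23 and 10.16 in the control, a difference of -2.28 (SE 0.37, adjusted p = 0.00509). The arrays of the combination had an SD of 0.11 and all lay below the controls. The call held in each alternative except the fit of the 6 arrays alone. Esm1 was the 1 called gene of 24 measured in the angiogenesis list, against 0.408% of all genes, and the list median was 0.10. Angpt4, an angiopoietin, was at 8.59, 7.98 and 8.49 against 10.05, 9.80 and 9.89, and just missed the threshold (-1.56, adjusted p = 0.0517). Angpt2, Apln and Vegfa had positive differences of 0.86, 1.66 and 0.29, none of them called. Of 14 general endothelial markers, 12 were above 0, with a median of 0.47. Limma called 0 of them, with 5 higher and 0 lower at an unadjusted p under 0.05, against 4.58% and 5.18% of all genes. Over the alternatives the median ran from 0.27 to 0.83 and up to 4 rose. Their summed intensity was 13940 to 37270 in the combination and 17660 to 21150 in the control, and combination replicate 3 was highest and replicate 2 lowest of the 6 arrays.

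Genes of the epithelial surface list lay mostly below 0, and 2 of them fell. Of 17 measured, 0 rose and 2 fell, against 0.324% and 0.0844% of all genes. Of the 17, 14 were below 0, and the median was -0.52. Arrays were lower without overlap for 7 of the 17, against 9.74% of all genes. C13h1orf116 was at 7.06, 7.19 and 6.82 against 8.35, 8.34 and 8.40 (-1.34, adjusted p = 0.00458). Ezr, which ties the membrane of microvilli to actin, was at 11.27, 11.20 and 10.84 against 11.84, 11.77 and 11.77 (-0.69, adjusted p = 0.00854), and its call ended without combination replicate 6 (0.0789) and on the values as deposited. Slc16a3, an exporter of lactate, was at 8.59, 8.16 and 8.28 against 10.41, 9.21 and 10.60, without overlap and without a call (-1.73, adjusted p = 0.115). Igsf8 stood at -0.97 (adjusted p = 0.055) and the retinoic acid-induced Gprc5a at -1.58 (adjusted p = 0.16).

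Clock genes formed the last group of falls. Nr1d1, the repressor REV-ERB alpha, was at 7.05, 7.57 and 7.65 in the combination and 8.97, 9.15 and 8.77 in the control (-1.54, SE 0.26, adjusted p = 0.00726). Dbp, an output factor of the clock, was at 7.36, 7.45 and 7.60 against 8.41, 8.72 and 8.60 (-1.11, SE 0.21, adjusted p = 0.0198). The arrays of each group lay close together and the groups did not overlap. Of 17 measured clock genes, 2 fell and 0 rose, against 0.0844% and 0.324% of all genes. Without overlap 7 were lower and 4 higher, against 9.74% and 6.65% of all genes. Nr1d2, the paralog of Nr1d1, differed by -1.06 (adjusted p = 0.183) and Bhlhe40, a repressor, by -0.69 (adjusted p = 0.243). On the other side, Nfil3, which acts against Dbp, differed by 1.33 (adjusted p = 0.116), Cry1 by 0.91 and Npas2 by 0.56.

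The clock results rest on which controls are used. The day 14 controls had Nr1d1 at 7.52 ± 0.28 (SD, n = 3), close to the 7.42 ± 0.33 of the combination at day 1, while the day 1 controls were at 8.96 ± 0.19. Against the day 14 controls Nr1d1 differed by -0.10 (adjusted p = 0.953), Dbp by -0.01 (adjusted p = 0.993) and Nfil3 by 0.40 (adjusted p = 0.749). Without control replicate 21 the day 1 difference of Nr1d1 was -1.45 (adjusted p = 0.0512). Dbp lost its call without any array but control replicate 22 (adjusted p 0.0571 to 0.119). The hour of sampling is not given in the labels, and its part in these values was not tested.

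**Figure D2:**
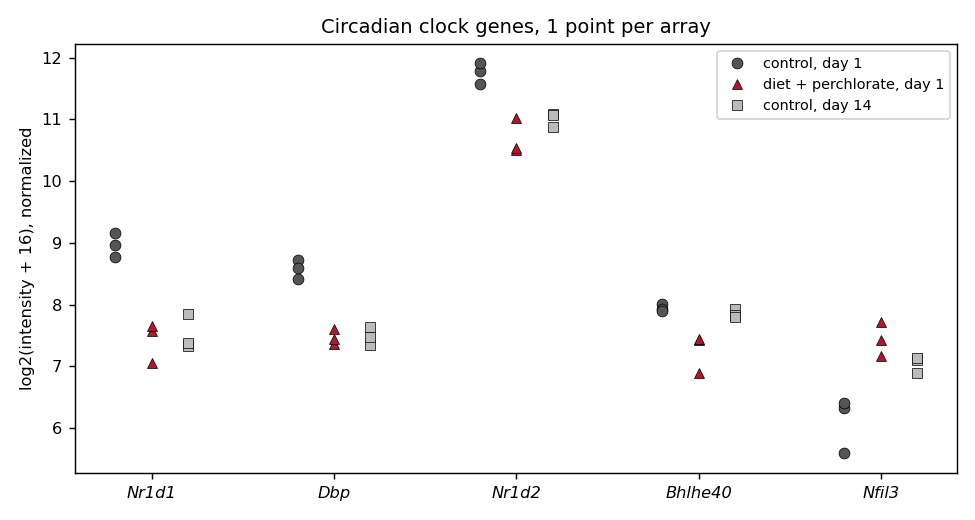
Level of 5 clock genes as log2(intensity + 16) after normalization, 1 point per array, for the day 1 controls (dark circles), the combination at day 1 (red triangles) and the day 14 controls (light squares). For Nr1d1 and Dbp the day 14 controls lie in the range of the combination or near it, and the day 1 controls stand above both.

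The remaining falls were in abundant transcripts and were small. Odc1, the first enzyme of polyamine synthesis, fell by 0.81 (adjusted p = 0.0152), Rplp0, a protein of the large ribosomal subunit, fell by 0.80 (adjusted p = 0.00854) and the small GTPase Rhoa fell by 0.79 (adjusted p = 0.00666). Gipc2, a scaffold protein, fell by 0.70 (adjusted p = 0.0198) and C1qbp, a mitochondrial protein, fell by 0.62 (adjusted p = 0.021). None of these 5 was called on the values as deposited. Of the 5, Rhoa kept its call without each of the 6 arrays in turn. Odc1 lost it without combination replicate 3 (0.115) or control replicate 21 (0.0968) or 24 (0.0798), and Rplp0 without combination replicate 3 (0.0532) or 6 (0.075) or control replicate 21 (0.0538). Gipc2 lost it without combination replicate 3 (0.138) or 6 (0.058) or control replicate 21 (0.0534) or 24 (0.124), and C1qbp without combination replicate 2 (0.0956) or 6 (0.0976) or control replicate 22 (0.1) or 24 (0.0865).

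Most genes of energy metabolism and ribosome production lay below 0, and none was called. Of 19 glycolysis genes, 16 were below 0, the median was -0.43, and limma called 0, with 11 lower and 1 higher at an unadjusted p under 0.05 against 5.18% and 4.58% of all genes. Among them Eno1, Hk1 and Aldoa differed by -0.63, -0.59 and -0.50. Of 30 subunits of the respiratory chain, 25 were below 0 with a median of -0.21, and limma called 0, with 6 lower at an unadjusted p under 0.05. Of 29 ribosome biogenesis genes, 24 were below 0, also with a median of -0.21, and limma called 0, with 4 lower and 2 higher at an unadjusted p under 0.05. Without normalization, with its median of 0.14 over all probe sets, these medians were -0.26, -0.04 and 0.01. With muscle and adipocyte marker levels as covariates they were -0.35, -0.09 and -0.22.

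No gene of the growth-related lists below had passed the threshold after 1 day of perchlorate. Outside these lists the chromosome protein gene Smc4 was called, with a rise of 1.36. Its call ended without any array but control replicate 24 (adjusted p 0.0553 to 0.1275 by limma), and its second probe set differed by -0.02. Of 60 measured genes of DNA replication and mitosis, 45 were above 0 with a median of 0.22, and limma called 0, with 0 at an unadjusted p under 0.05. Mki67, the usual marker of cycling cells, differed by 0.53 (adjusted p = 0.852), Top2a by 0.20 and Ccnb1 by 0.11. The median was -0.06 without combination replicate 3 and 0.52 against the day 14 controls. Of 30 genes of the interstitial matrix, 0 were called, with 3 higher at an unadjusted p under 0.05 against 4.58% of all genes. Col1a1, Col3a1 and Sparc were at -0.38, -0.12 and -0.32. Of 15 basement membrane genes, 11 were above 0 with a median of 0.29 and 0 called, the highest being Col18a1, Lamb1 and Nid2 at 0.80, 0.70 and 0.67. Of the 15, 3 were higher at an unadjusted p under 0.05, against the same 4.58% of all genes.

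Markers of other cell types differed between arrays. Of 14 C cell markers, 13 were below 0 with a median of -0.65, and 7 were lower without overlap, against 9.74% of all genes. Their summed intensity was 25630 to 33300 in the combination and 37610 to 44900 in the control, so the groups did not overlap, although Calca, the defining hormone gene, differed by only -0.22 (adjusted p = 0.737). Of 14 adipocyte markers, 13 were below 0 with a median of -1.33, and the sums ran from 3183 to 11800 in the combination and from 8716 to 35320 in the control. Of 20 skeletal muscle markers, 19 were below 0 with a median of -0.63. Their sums were 49200, 9605 and 7494 in combination replicates 2, 3 and 6 and 21610, 35450 and 8292 in control replicates 22, 21 and 24, so muscle did not separate the groups. Limma called 0 genes of these 3 lists. At an unadjusted p under 0.05, 5 C cell, 9 adipocyte and 0 muscle markers were lower, against 5.18% of all genes. Against the day 14 controls the medians were -0.73 for C cell, -0.36 for adipocyte and 1.02 for muscle markers. With the levels of the muscle and adipocyte markers as covariates, 30 probe sets were called, 27 of them among the 85. Slc5a5 (1.19, adjusted p = 0.0336) and Itih3 (3.82, adjusted p = 1.96e-05) stayed called there. Of 7 follicular markers, which include Slc5a5 and Iyd, 5 were above 0 and 2 below, with a median of 0.32. At an unadjusted p under 0.05, 3 were higher and 0 lower, against 4.58% and 5.18% of all genes. Their sums overlapped, at 43260 to 49400 in the combination and 40360 to 44050 in the control. Without combination replicate 3 the median was 0.14.

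**Figure D3:**
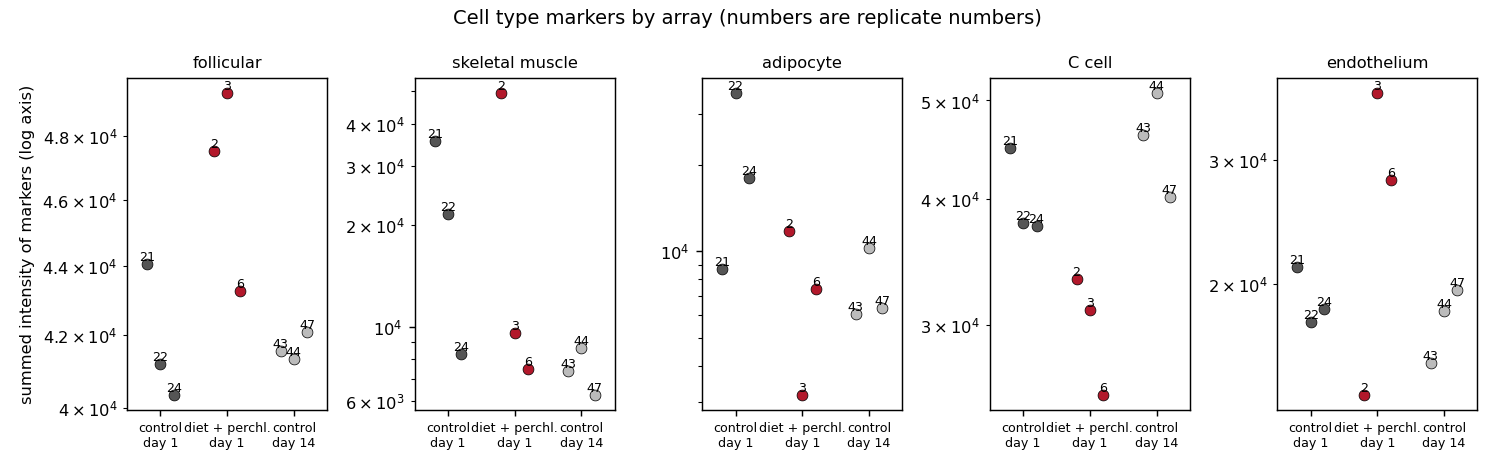
Summed normalized intensity of the markers of 5 cell types in each array, on logarithmic axes that differ between panels, for the day 1 controls, the combination at day 1 and the day 14 controls. The numbers are replicate numbers. C cell markers are lower in each array of the combination than in each control array. Muscle and adipocyte markers vary widely within both day 1 groups and less within the day 14 controls.

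The values of the day 1 treatments given separately are set beside those of the combination, with the caution that all 3 share the same 3 controls. The diet alone had 6 probe sets called (0.0193%), all higher, and perchlorate alone had 0 (2709 at an unadjusted p under 0.05). For Slc5a5 the 3 treatments were alike in size, at 1.19 for the combination, 1.22 for the diet and 1.07 for perchlorate, the last not called. For Itih3 the values were 3.74, 2.18 and 0.26, and for Uroc1 3.47, 2.24 and 1.49. Pde4b was at 1.08 with the combination, 0.43 with the diet and -0.03 with perchlorate, and Ninl at 1.81, 0.90 and -0.02. Nqo1 was at -1.82, -1.19 and -1.09, and Esm1 at -2.28, -1.39 and -1.26. Odc1 and C1qbp were near 0 with either treatment alone, at -0.04 and -0.03 with the diet and -0.05 and 0.04 with perchlorate.

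**Figure D4:**
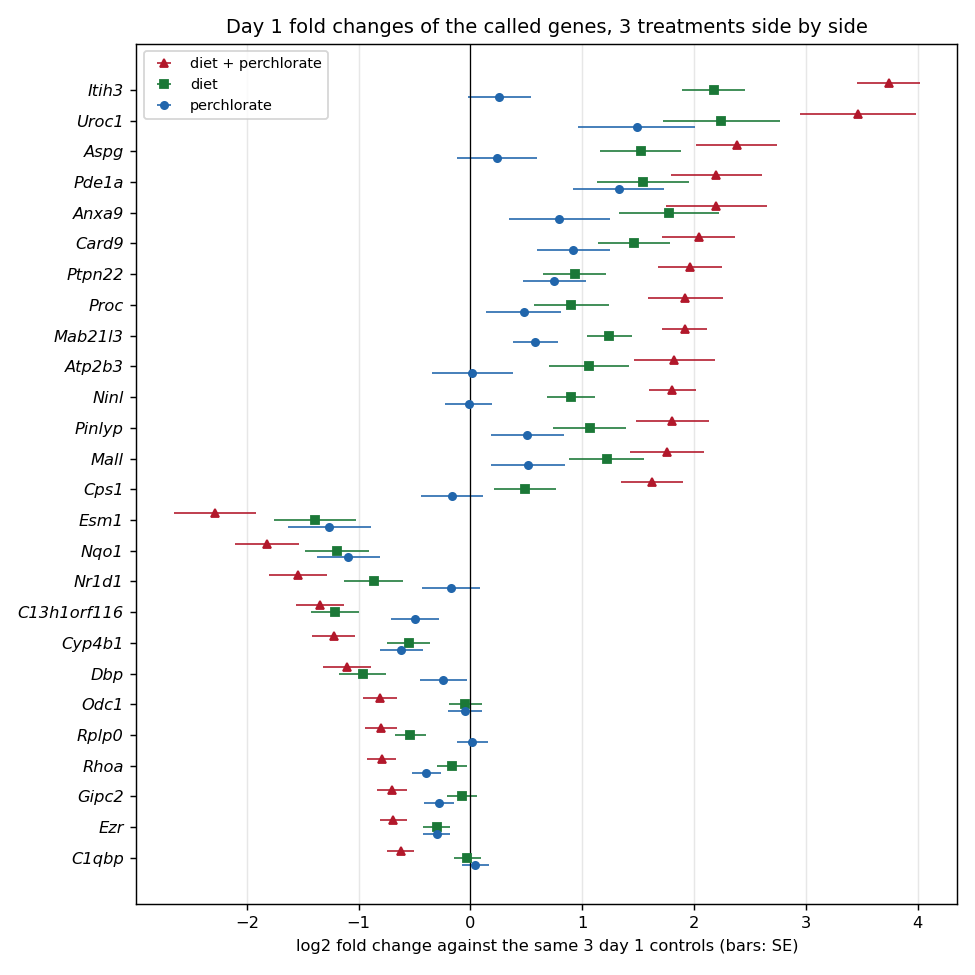
Log2 fold change of the 14 genes with the largest rises and the 12 that fell, at day 1, for the combination (red triangles), the diet alone (green squares) and perchlorate alone (blue circles), each against the same 3 day 1 controls. Bars are the SE from limma. The genes were chosen by the combination, so its larger values are partly a matter of choice, and the 3 series share their controls.

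Setting the combination directly against the diet alone, which differs from it by 1 day of perchlorate, called 1 gene. Mta1, a subunit of a chromatin-remodelling complex, was at 5.33 ± 0.33 (SD, n = 3) in the combination and 6.90 ± 0.18 with the diet, and fell by 1.57 (adjusted p = 0.014). Its level in the combination was dim, on a scale where 0 intensity gives 4. The second probe set of Mta1 was dimmer still, with a mean of 4.20 over all arrays. No probe set was called without combination replicate 3 or diet replicate 8 or 9, or on the values as deposited. In all, limma called 1 of 31042 probe sets (0.00322%) and 1 of 14217 genes (0.00703%), and 1697 had an unadjusted p under 0.05. Without perchlorate replicate 18 there were 12 calls. Slc5a5 differed by -0.02 between the combination and the diet, with a 95% interval of -0.42 to 0.37. For Itih3 the difference was 1.56 (interval 0.98 to 2.15, adjusted p = 0.135), for Pde4b 0.66 (0.35 to 0.96, adjusted p = 0.247), for Blnk 0.72 (0.43 to 1.02, adjusted p = 0.163) and for Nqo1 -0.63 (-1.22 to -0.04, adjusted p = 0.886). These intervals are for each gene alone, and none of the 4 passed once all probe sets were counted.

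Against perchlorate alone, from which the combination differs by the 2 months of diet, 322 probe sets were called (1.04%), 172 higher and 150 lower. Over genes that was 196, or 1.38%, with 93 higher (0.654%) and 103 lower (0.724%). Without normalization 1254 were higher and 39 lower, and without perchlorate replicate 18 the calls were 145, of which 90 were among the 322. There were 1675 calls without perchlorate replicate 15, 1500 without 16, and 203, 69 and 152 without combination replicates 2, 3 and 6. The summed intensity of the lymphocyte markers was 11840, 931 and 4739 in perchlorate replicates 15, 16 and 18, against at most 1616 in the combination, and its part in these calls was not tested. Itih3 was 3.48 higher with the combination, and 3.54 without replicate 18 (adjusted p = 2.1e-05). Ninl and Aspg were 1.82 and 2.14 higher and stayed called without it (adjusted p = 0.00184 and 0.0367), and Mta1 was lower by 1.41 and stayed called (0.0124). The differences of A2ml1, a protease inhibitor of the alpha-2-macroglobulin family (2.90), of F5, a clotting factor (1.90), of Atp2b3 (1.81), of the phosphatase gene Dusp2 (-1.97), of Pcsk1n, an inhibitor of prohormone convertase (-1.43), and of Nr1d1 (-1.36) lost their calls without it, with adjusted p of 0.11, 0.0722, 0.07, 0.0629, 0.0711 and 0.0621. C cell markers, which include Pcsk1n, had a median of -0.68 in this comparison.

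Whether the diet and perchlorate add up was tested as their interaction at day 1. Limma called 0 probe sets, 2430 had an unadjusted p under 0.05, and the other fits called 0 to 3. For Slc5a5 the interaction was -1.10 (adjusted p = 0.39), a negative value meaning that the combination stayed below the sum of the separate differences. For Itih3 it was 1.30 (adjusted p = 0.463), for Pde4b 0.69 (adjusted p = 0.463) and for Mta1 -1.97 (adjusted p = 0.0619). Odc1 and C1qbp were named for their fall with the combination. Without perchlorate replicate 18 their interactions were -0.72 (adjusted p = 0.316) and -0.52 (adjusted p = 0.297), neither called.

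With perchlorate given for 14 days the same diet had more calls, 1506 probe sets (4.85%), 1091 higher and 415 lower, each set against its own controls of that day. Itih3 was at 13.28 ± 0.10 (SD, n = 3) then, a difference of 6.06 against 3.74 at day 1. Slc5a5 differed by 1.70 at day 14 and 1.19 at day 1, Pde4b by 1.44 and 1.08, Aspg by 3.99 and 2.38, and Mab21l3 by 2.77 and 1.92. Blnk went the other way, at 0.31 against 1.10, and so did Atp2b3, at 0.58 against 1.82. Esm1, whose lowest group mean was that of the combination at day 1, was at 10.70 ± 0.35 at day 14, a difference of 0.19 from its controls. The change from day 1 to day 14 was tested as the difference of these differences. Limma called 0 probe sets (2296 had an unadjusted p under 0.05), and without combination replicate 3 of day 1 it called 59. The smallest adjusted p was 0.107, shared by Itih3 (2.32), Cxcr4, a chemokine receptor (1.73), the matrix genes Sparc (1.69) and Col5a2 (1.68), and Defb1, a secreted antimicrobial peptide (-3.15), among others. For Esm1 it was 0.138, with a change of 2.47.

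**Figure D5:**
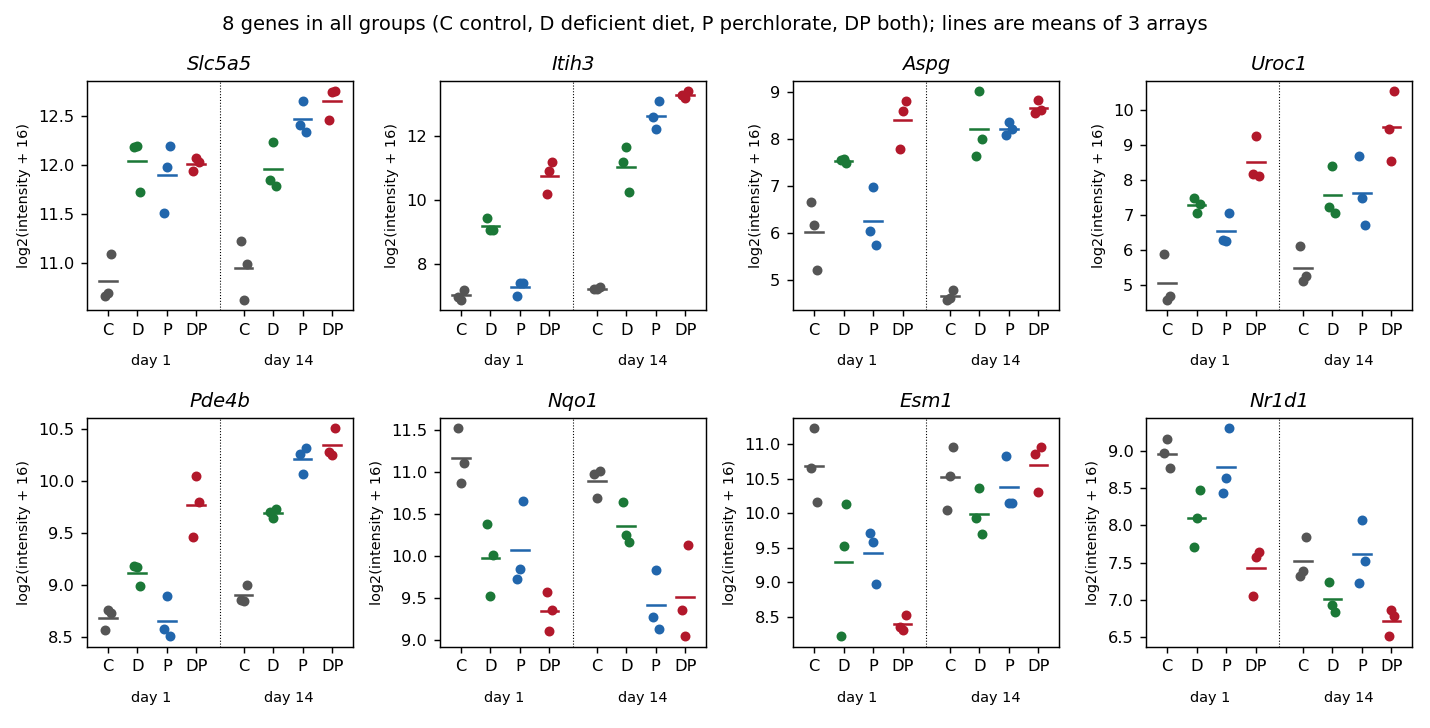
Level of 8 genes in all 24 arrays, as log2(intensity + 16) after normalization, by group (C control, D deficient diet, P perchlorate, DP both) and day. Points are arrays and lines are means of 3. At day 1 Slc5a5 lies at a like level in all 3 treated groups, above the control, Itih3 is highest with both treatments and next highest with the diet, and Esm1 is low with the combination at day 1 but not at day 14.

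Several lists with no call at day 1 had many at day 14, although the difference between the days was called for no gene. Of 60 cell cycle genes, 36 rose at day 14 with a median of 1.33, against 0 and 0.22 at day 1. Of 30 matrix genes, 21 rose at day 14 with a median of 1.34, against 0 and 0.03, and of 15 basement membrane genes 9 rose with a median of 1.36, against 0 and 0.29. At day 14, 7.17% of all genes were called, 5.35% higher and 1.82% lower. Among the NRF2 targets 5 fell and 1 rose at day 14 with a median of -0.27, close to the -0.28 of day 1, where 1 had fallen. Among the epithelial surface genes 8 fell and 2 rose at day 14, with a median of -0.90 against -0.52.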

How the data were processed

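Thyroid RNA was measured on 24 Affymetrix rat arrays in 8 groups of 3. The authors summarised each probe set to a linear intensity with GCOS, per the submitters' processing notes, and deposited that; its version and scaling target are not given in the sources used here. With 2% trimmed, mean intensity ran from 322 to 489 per array, so no common scaling was evident. Depth has no meaning for arrays, and their number limits the precision. From 31099 probe sets 57 controls were removed. Values became log2(intensity + 16), were quantile normalized, and were fitted with limma 3.58.1 in R 4.3.3 over all 24 arrays, 1 mean per group, eBayes with a mean-variance trend, and Benjamini-Hochberg adjustment. The fit was tested on simulated data. The platform's annotation gave 1 symbol to 20826 probe sets, which could be named, several to 436 and none to 9780.

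The 24 pathway lists and 10 marker lists, and the comparison itself, were chosen with earlier results of these data known, so no list is independent evidence. Lists hold 720 genes, 647 of them measured. Named are the 14 largest rises and 14 largest falls called without overlap (12 fell), up to 6 each way in the other comparisons, all measured hormone synthesis genes and up to 5 per other list with the smallest p. Other genes named were chosen after their values were seen. Alternatives changed normalization, pseudocount, filter, weights, eBayes settings, arrays, controls, covariates and the choice of probe set.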

Additional observations from a re-analysis of the deposited data

How the results depend on the processing

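Each of the 58 called genes was refitted under up to 20 alternatives, and 0 reversed. Only Itih3 was called in all of them, and 13 genes, Itih3 included, were called in all but the fit of the 6 arrays alone. Calls of the combination against its control numbered 85, against 1 when only its 6 arrays were fitted, 135 as deposited, 281 with arrays weighted by quality, 273 when perchlorate replicate 18 was left out and 241 when control replicate 22 of day 1 was left out too. They numbered 166 with the day 14 controls, 241 with the mean of both days' controls and 30 with muscle and adipocyte covariates, and 44 to 123 when 1 array was left out. Of the 85, 60 were also called with the day 14 controls. Against the diet the call count of 1 became 0 as deposited and in the fit of only the groups, 21 with weights, 12 without replicate 18, 38 without both arrays, and 0 to 3 with 1 array left out. Against perchlorate the 322 became 1293 as deposited, 682 with the 40% dimmest left out, 0 in the fit of only the groups, 1209 with weights, 194 without the trend, and 69 to 1675 with 1 array left out (145 without perchlorate replicate 18, 1500 without 16 and 1675 without 15). The interaction had 0 calls, against 1 with a common median, 2 with the filter, 3 with weights, 1 without the trend, 1 with robust eBayes, 1 without both arrays, and 0 to 2 with 1 array left out. The change from day 1 to day 14 had 0 calls, against 54 with weights and 0 to 59 with 1 array left out, where combination replicate 3 of day 1 gave 59 and replicate 29 of day 14 gave 4. The causes were not tested. No paired analysis was possible because the replicate numbers in the titles are different in every group. Detection calls were not used here, so signal over background of dim probe sets such as Uroc1 is unknown.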

Other observations

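Lists of the secretion and recycling of proteins such as thyroglobulin held no called gene with the combination at day 1. Of 28 measured genes of protein folding in the endoplasmic reticulum, limma called 0, and the median was -0.04. At an unadjusted p under 0.05, 2 were lower, against 5.18% of all genes. Hspa5, the main chaperone, differed by 0.00, Pdia3 by 0.42 and Herpud1, of protein degradation, by -0.65. Of 19 lysosomal genes 0 were called, with a median of 0.12. At an unadjusted p under 0.05, 2 were higher and 1 lower, against 4.58% and 5.18% of all genes. Ctsh, a cathepsin that takes part in protein breakdown, was at 12.87 ± 0.12 (SD, n = 3) in the combination and 12.14 ± 0.12 in the control, without overlap and without a call (0.73, adjusted p = 0.0804). Ctsd and Cst3, a cathepsin and a cathepsin inhibitor, differed by -0.42 and -0.52. At day 14 Ctsh differed by 1.35 and was called (adjusted p = 7.26e-05).

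Of 19 measured genes of cholesterol synthesis 0 were called by limma, with a median of -0.11. At an unadjusted p under 0.05, 1 was higher and 3 lower, against 4.58% and 5.18% of all genes. The thyroid transcription factors Pax8, Foxe1, Hhex and Nkx2-1 differed by 0.07, -0.04, -0.16 and -0.21, none of them called. Of 20 macrophage and mast cell markers, 14 were above 0 with a median of 0.18 and 0 were called (0 at an unadjusted p under 0.05). At day 14 10 of the 20 rose, against 5.35% of all genes, with a median of 1.08. The difference between days was not called for any gene.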
